A study of Mus musculus with 3 samples.

Results

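Tissue residency genes were followed in intratumoral pmel T cells as a list of 8 gene symbols, *Itgae*, *Itga1*, *Cxcr6*, *Cd69*, *Rgs1*, *Rgs2*, *Znf683* and *Cd101*, matched to the gene symbols of the deposited files. Of the 8 symbols, 7 were found among the 33696 genes of the files. *Znf683* was absent and was left out. *Zfp683*, the mouse gene for the same transcription factor (Hobit), was in the files and is given only among related genes. The cells came from C57BL/6 mice, purchased at 5 to 6 weeks of age, that bore subcutaneous B16F10 melanoma and were irradiated with 6 Gy on day 5 after tumor injection. On that day each mouse received Thy1.1+ CD8+ T cells from pmel mice, whose transgenic T cell receptor recognizes the melanoma antigen gp100. Before transfer these cells were cultured for 6 days with 10 nM cytokine, with gp100 peptide in the first part of the culture only. Mice then received 4 doses of 2.5 μg cytokine at intervals of 48 h. The 3 groups were sIL-2 (super IL-2, a variant that binds IL-2Rβ tightly), IL-2/21-Trikine (sIL-2 linked to a binder of IL-21Rα) and sIL-2 + IL-21. *In vivo*, the mice of the sIL-2 + IL-21 group were dosed with sIL-2 and no IL-21, so the sIL-2 and sIL-2 + IL-21 groups differed in the culture before transfer and not in the injected cytokine. On day 18 of tumor growth, viable Thy1.1+CD8+ cells were taken from the tumors by sorting and sequenced with 10x 3′ chemistry as 1 library per group. The transferred T cells came from mice with 1 transgenic receptor. The number of mice behind a library was not found in the text, and treatment and library cannot be told apart. Where 3 values are given in library order, the first belongs to sIL-2, the next to IL-2/21-Trikine and the last to sIL-2 + IL-21. A log2 ratio of a library set against another has the first named as its numerator.

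Resident T cells stay in a tissue in place of recirculating through blood and lymph. They hold on to the tissue through integrins such as CD103 (*Itgae*, paired with the β7 chain and bound to E-cadherin) and CD49a (*Itga1*, paired with the β1 chain and bound to collagen). CD69 keeps them from leaving by removing the egress receptor S1PR1 from the surface, CXCR6 responds to the ligand CXCL16, and RGS proteins shorten signaling from chemokine receptors. In tumors the same genes are widely used to describe resident-like CD8+ T cells, although *Cd69*, *Rgs1* and *Rgs2* are also induced by T cell activation.

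After filtering, 7760 cells remained in the sIL-2 library, 13299 in the IL-2/21-Trikine library and 9798 in the sIL-2 + IL-21 library, with 130200802 to 168041089 UMIs in all and a median of 10254 to 14055.5 UMIs per cell. The 8 markers of CD8 T cells were detected in each library, and 96.5% to 97.2% of cells passed a T cell filter. Of markers of other cell types, the 12 of myeloid cells summed to 87.3 to 210 CPM (UMIs per 1000000 UMIs of the library), the 6 of melanoma to 2.24 to 8.87 CPM and the 6 of B cells to 2.30 to 3.20 CPM. The 5 erythroid markers summed to 68.9 CPM in the sIL-2 library and to under 1 CPM in the other libraries. Pairs of libraries shared 18 to 43 cell names. Clustering without the residency genes gave 12 clusters, numbered 1 to 12. By their markers, cluster 1 was proliferating-like, cluster 2 early activated-like, cluster 3 stem-like, cluster 5 terminal cytotoxic-like, cluster 7 ISG-like (interferon-stimulated genes) and cluster 12 myeloid-like (150 cells). The other 6 had no name, and among them clusters 8 and 10 held shallow cells with medians of 1184 and 761 UMIs.

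*Itga1*, *Cxcr6*, *Cd101* and *Rgs2* had the same order over the libraries, with smaller differences for *Rgs2*. For the first 3, the 250 bases before the RefSeq start (build GRCm38.p6, written on the strand of the gene) are shown. Capitals mark each match on either strand to TGNGGT, a loose form of the RUNX motif. The usual core of that motif has C or T in place of N. RUNX factors are regulators of CD8+ T cells, with RUNX3 among those linked to residency.
Itga1 (chr13:115101965-115102214, minus strand): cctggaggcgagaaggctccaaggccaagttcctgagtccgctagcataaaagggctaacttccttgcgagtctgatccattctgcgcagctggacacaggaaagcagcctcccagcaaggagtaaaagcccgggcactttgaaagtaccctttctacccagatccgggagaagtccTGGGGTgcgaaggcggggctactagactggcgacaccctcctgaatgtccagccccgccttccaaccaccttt
Cxcr6 (chr9:123806227-123806476, plus strand): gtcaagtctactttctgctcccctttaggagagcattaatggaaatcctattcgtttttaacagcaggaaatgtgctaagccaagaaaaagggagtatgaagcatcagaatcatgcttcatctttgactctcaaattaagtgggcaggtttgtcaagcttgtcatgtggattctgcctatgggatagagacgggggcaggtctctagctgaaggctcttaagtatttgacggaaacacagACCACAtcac
Cd101 (chr3:101029554-101029803, minus strand): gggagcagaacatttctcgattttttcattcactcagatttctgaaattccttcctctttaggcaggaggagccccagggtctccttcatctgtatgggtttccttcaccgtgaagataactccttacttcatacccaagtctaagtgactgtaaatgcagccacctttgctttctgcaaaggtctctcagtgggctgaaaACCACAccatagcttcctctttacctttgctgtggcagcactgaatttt
Each of these 3 windows held 1 match to the loose form, at 73, 10 and 49 bases before the start for *Itga1*, *Cxcr6* and *Cd101*. That of *Itga1* reads TGGGGT, with G in place of N, and so is no match to the usual core. Those of *Cxcr6* and *Cd101* read ACCACA, which matches that core on the other strand. The loose form was found in 40.1% of 32851 promoter windows of this length, so it is common. The windows held no match to a STAT motif (TTCNNNGAA, 7.02% of windows), an AP-1 motif (TGANTCA, 6.75%), a CRE motif (TGACGTCA, 1.55%) or a SMAD motif (CAGACA, 17.1%), searched on both strands. The window of *Rgs2*, the only other gene of the list with a promoter sequence, held no match to any of the 5 motifs. Among the genes with this order over the libraries, the match to the loose form was thus not common to all. These matches are letters in a window and were not tested for binding.

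The integrin gene *Itga1*, which encodes CD49a, had the largest log2 ratio of the list between any pair of libraries. Its level was 64.3 CPM [63.0, 65.7] in the sIL-2 library, 32.8 CPM [32.0, 33.7] in the IL-2/21-Trikine library and 26.6 CPM [25.8, 27.4] in the sIL-2 + IL-21 library, with exact counting intervals in brackets. The sIL-2 library was thus the high one. The log2 ratio was -0.97 [-1.02, -0.92] for IL-2/21-Trikine set against sIL-2, 1.27 [1.22, 1.33] for sIL-2 set against sIL-2 + IL-21, and 0.30 [0.25, 0.36] for IL-2/21-Trikine set against sIL-2 + IL-21. More cells carried *Itga1* in the sIL-2 library. Cells with under 2000 UMIs were left out and the others were thinned to 2000 UMIs. *Itga1* was then detected in 12.7% of cells in the sIL-2 library, 6.71% in the IL-2/21-Trikine library and 6.03% in the sIL-2 + IL-21 library. The share in the IL-2/21-Trikine library was 0.526 times [0.481, 0.576] that in the sIL-2 library. Without thinning, the shares were 44.97%, 23.6% and 24.97%. The β1 chain *Itgb1*, its partner, differed less, with 464 CPM in the sIL-2 library, 450.7 CPM in the IL-2/21-Trikine library and 353 CPM in the sIL-2 + IL-21 library.

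*Itgae*, which encodes CD103, was near the lower limit of what these libraries could measure. A total of 176 UMIs were counted in the sIL-2 library, 241 in the IL-2/21-Trikine library and 278 in the sIL-2 + IL-21 library. These are 1.352 CPM [1.16, 1.57], 1.45 CPM [1.27, 1.64] and 1.654 CPM [1.47, 1.86]. The log2 ratio of IL-2/21-Trikine set against sIL-2 was 0.10, with an interval that includes 0 [-0.19, 0.38], and no difference between these libraries was detectable at this depth. For sIL-2 set against sIL-2 + IL-21 it was -0.29 [-0.57, -0.01], and for IL-2/21-Trikine set against sIL-2 + IL-21 it was -0.20 [-0.45, 0.06]. Without thinning, *Itgae* was detected in 1.68%, 1.45% and 2.02% of cells in library order, and 8, 12 and 21 cells of the 3 libraries held at least 3 UMIs. After thinning the shares were 0.400%, 0.417% and 0.551%. The β7 chain *Itgb7* was measured at 47.4 CPM in the sIL-2 library, 31.9 CPM in the IL-2/21-Trikine library and 44.0 CPM in the sIL-2 + IL-21 library. For *Itgb7* the IL-2/21-Trikine library was the low one, with a log2 ratio of -0.57 [-0.63, -0.52] against sIL-2 and -0.47 [-0.52, -0.41] against sIL-2 + IL-21.

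**Figure D1:**
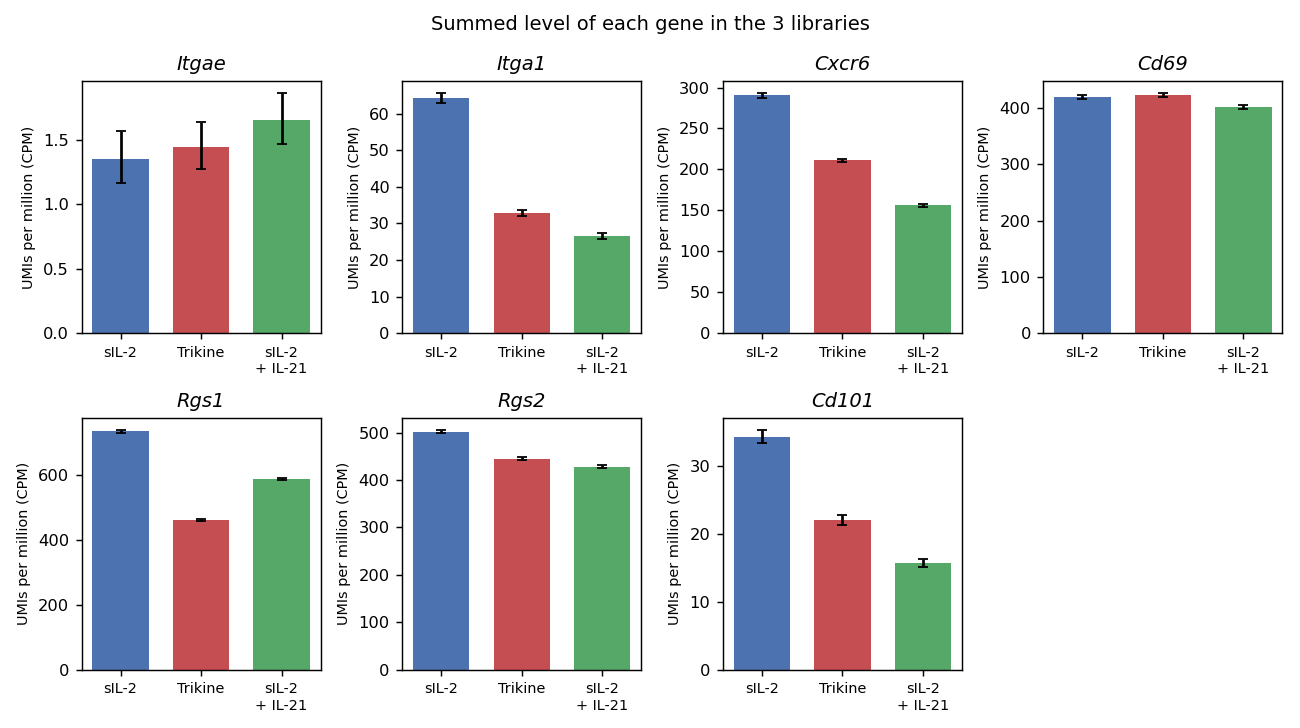
Level of each of the 7 genes in CPM in the 3 libraries, 1 panel per gene with its own axis from 0. Bars are UMIs summed over kept cells and error bars are exact Poisson intervals at 95%, which cover counting error only. The sIL-2 bar is the highest for *Itga1* (64.3 CPM), *Cxcr6* (290 CPM), *Rgs1* (736 CPM), *Rgs2* (502 CPM) and *Cd101* (34.3 CPM), whereas the 3 bars of *Cd69* lie between 402 and 424 CPM.

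*Cxcr6*, the receptor for CXCL16, followed the same order as *Itga1* with smaller ratios. Its level was 290 CPM [287, 293] in the sIL-2 library, 211 CPM [209, 213] in the IL-2/21-Trikine library and 156 CPM [154, 158] in the sIL-2 + IL-21 library. The log2 ratio was -0.46 [-0.48, -0.44] for IL-2/21-Trikine set against sIL-2, 0.43 [0.41, 0.46] for IL-2/21-Trikine set against sIL-2 + IL-21 and 0.89 [0.87, 0.92] for sIL-2 set against sIL-2 + IL-21. The IL-2/21-Trikine library therefore lay between the other two. Thinned cells with a *Cxcr6* UMI made up 43.7%, 35.1% and 28.8% in library order, and the unthinned shares were 88.1%, 75.1% and 77.8%, with a median of 12882.5, 10254 and 14055.5 UMIs per cell in these libraries.

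*Cd101*, an immunoglobulin superfamily receptor that restrains T cell activation, was again highest in the sIL-2 library. It was measured at 34.3 CPM [33.3, 35.4] in the sIL-2 library, 22.1 CPM [21.4, 22.8] in the IL-2/21-Trikine library and 15.7 CPM [15.1, 16.3] in the sIL-2 + IL-21 library. The log2 ratio was -0.64 [-0.70, -0.57] for IL-2/21-Trikine set against sIL-2, 0.49 [0.42, 0.57] for IL-2/21-Trikine set against sIL-2 + IL-21 and 1.13 [1.06, 1.20] for sIL-2 set against sIL-2 + IL-21. Thinned shares of *Cd101*-positive cells were 7.89% in the sIL-2 library, 4.99% in the IL-2/21-Trikine library and 4.30% in the sIL-2 + IL-21 library. The unthinned shares were 36.1%, 20.8% and 20.4%.

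*Cd69*, the lectin-like receptor that holds S1PR1 inside the cell, was nearly equal in the 3 libraries. Its level was 419 CPM [416, 423] in the sIL-2 library, 424 CPM [421, 427] in the IL-2/21-Trikine library and 402 CPM [399, 405] in the sIL-2 + IL-21 library. All 3 log2 ratios lay between 0.02 and 0.08. After thinning, 47.1%, 46.8% and 48.2% of cells had a *Cd69* UMI in library order, and the unthinned shares were 84.7%, 78.1% and 87.0%.

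The RGS genes encode proteins that switch off G proteins below chemokine receptors, and *Rgs1* and *Rgs2* lie near each other on the same chromosome. *Rgs1* was the one gene of the list for which the IL-2/21-Trikine library was clearly the lowest. Its level was 736 CPM [732, 741] in the sIL-2 library, 463 CPM [460, 466] in the IL-2/21-Trikine library and 589 CPM [586, 593] in the sIL-2 + IL-21 library. The log2 ratio of IL-2/21-Trikine was -0.67 [-0.68, -0.66] against sIL-2 and -0.35 [-0.36, -0.33] against sIL-2 + IL-21. *Rgs1* was detected in 59.3%, 44.9% and 52.6% of thinned cells (89.9%, 75.2% and 86.7% without thinning) in library order. *Rgs2* differed little, with 502 CPM [498, 506], 445 CPM [442, 449] and 428 CPM [425, 432] in the same order. Its thinned shares were 49.7%, 47.2% and 48.05% and its unthinned shares 82.2%, 72.2% and 83.9%.

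**Figure D2:**
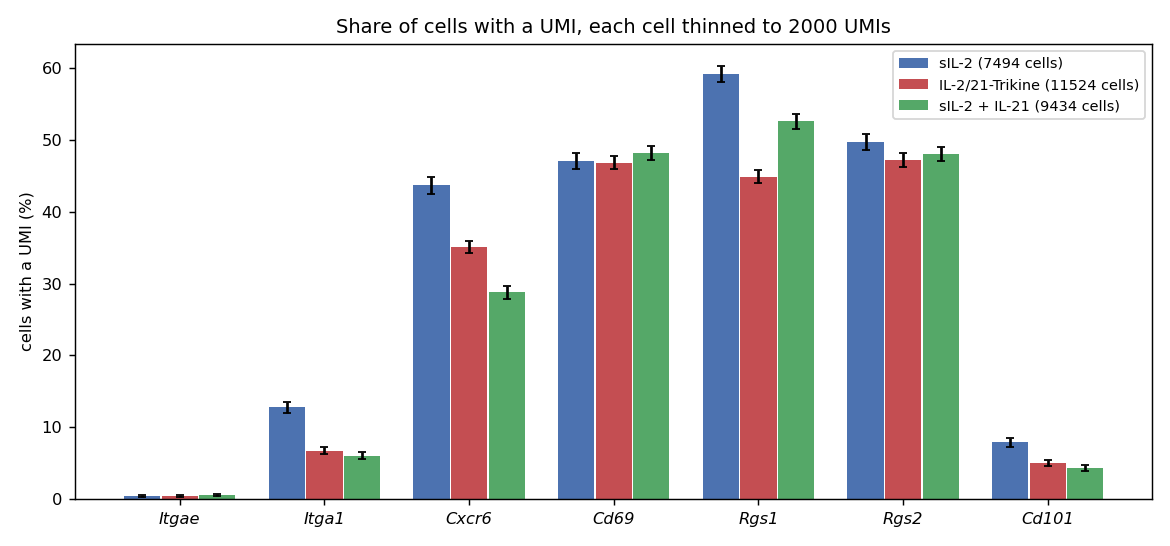
Percentage of cells with at least 1 UMI of each gene, after cells under 2000 UMIs were left out and the others thinned to 2000 UMIs. This left 7494 cells in the sIL-2 library, 11524 in the IL-2/21-Trikine library and 9434 in the sIL-2 + IL-21 library. Error bars are exact binomial intervals at 95%. *Rgs1* separates the libraries at 59.3%, 44.9% and 52.6%, the *Cd69* bars lie between 46.8% and 48.2%, and *Itgae* stays at or below 0.551% in each library.

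As a background, the same shares were measured in the 150 myeloid-like cells, whose median was 9060.5 UMIs. No doublet caller was run, so droplets of this cluster may hold a T cell beside a myeloid cell, and the shares are upper estimates of what free RNA gives. After thinning to 2000 UMIs, 110 of them remained, and *Cd3e*, a T cell receptor subunit, was found in 42.7% of these, so T cell RNA was in many of these droplets. *Itga1* and *Cd101* were each found in 4.55% [1.49, 10.3] of the 110 cells and *Cxcr6* in 16.4% [10.0, 24.6]. The shares of *Itga1* in the IL-2/21-Trikine library and in the sIL-2 + IL-21 library and those of *Cd101* in all 3 libraries lie within these intervals. The sIL-2 share of *Itga1* (12.7%) and all 3 shares of *Cxcr6* lie above them. *Cd69* and *Rgs2* were each found in 40.9% [31.6, 50.7] of the myeloid-like cells, an interval that spans their shares in all 3 libraries. *Rgs1* was found in 42.7% [33.3, 52.5], which spans its share in the IL-2/21-Trikine library. Pooled levels in this cluster were 358 CPM for *Cd69*, 443 CPM for *Rgs2* and 528 CPM for *Rgs1*. Whether myeloid cells transcribe *Cd69*, *Rgs1*, *Rgs2*, *Cd101*, *Itga1* or *Cxcr6* themselves was not tested. No share of these genes in this cluster is therefore read as free RNA. All 6 melanoma markers were also higher in this cluster by a log2 ratio of at least 0.5. *Itgae* was found in 0 of 110 thinned cells, with an upper limit of 3.30%, and in 4.67% [1.90, 9.38] of the 150 cells without thinning. These intervals span its thinned share in all 3 libraries and its unthinned share in the sIL-2 + IL-21 library. Dendritic cells that carry CD103 express *Itgae* themselves, and 2 of 6 markers of dendritic cells were higher in this cluster by a log2 ratio of at least 0.5, so it is no measure of free RNA for *Itgae*. Without thinning the other shares in the 150 cells were 25.3% for *Itga1*, 19.3% for *Cd101*, 46.7% for *Cxcr6*, 52.7% for *Cd69*, 51.3% for *Rgs2* and 54.0% for *Rgs1*.

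The 7 genes were set against all genes by counts and medians, with no test because each group is 1 library. For IL-2/21-Trikine set against sIL-2, 3 of the 7 genes (*Itga1*, *Rgs1* and *Cd101*) were lower by a log2 ratio of at least 0.5, as were 7.42% of 11275 genes measured at 1 CPM or more, and 0 were higher, against 3.45% of all genes. The median over the 7 was -0.46, and over all genes -0.08. For sIL-2 set against sIL-2 + IL-21, 3 (*Itga1*, *Cxcr6* and *Cd101*) were higher, against 11.3% of all genes, and 0 were lower, against 7.29%. Here the medians were 0.32 for the list and 0.08 for all genes. For IL-2/21-Trikine set against sIL-2 + IL-21, 0 were higher, against 4.65% of all genes, and 0 were lower, against 5.66%, and the medians were 0.08 and 0.00. These 3 comparisons share libraries. *Cd101* lay just under the bound in the last one, at 0.49. General markers of CD8 T cells, 8 in number, moved as well. Their median was -0.23 for IL-2/21-Trikine set against sIL-2, with 0 past the bound. It was 0.32 for sIL-2 set against sIL-2 + IL-21, with 1 higher and 0 lower, and 0.11 in the last comparison. In the second comparison the median of the 7 genes was thus no larger than that of these markers.

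The ratios of all genes differed with gene length, and the genes of the dissociation response had the order of *Rgs1* over the libraries. Log2 ratios of sIL-2 set against sIL-2 + IL-21 differed with gene length, with a median of -0.05 over 2863 genes under 10 kb and 0.28 over 1245 genes of 100 kb or more, of which 22.4% were higher by at least 0.5. For IL-2/21-Trikine set against sIL-2 the medians were -0.03 and -0.17, and 11.2% of the genes of 100 kb or more were lower by at least 0.5. *Itga1* spans 149 kb, *Itgae* 56.9 kb and *Cd101* 36.0 kb, and *Cxcr6*, *Cd69*, *Rgs1* and *Rgs2* are under 10 kb, so the 0.89 of *Cxcr6* stood in a length class with a median of -0.05. The 14 genes of the dissociation response summed to 5335 CPM in the sIL-2 library, 3990 CPM in the IL-2/21-Trikine library and 4476 CPM in the sIL-2 + IL-21 library, which is not the order of *Itga1*, *Cxcr6* or *Cd101*. The part of length and of dissociation in these results was not tested. Reads of *Itga1* could be shared with *Pelo* (20.7 to 22.1 CPM), which overlaps it on the same strand, so the level of *Itga1* is uncertain to that extent. *Haspin* (5.54 to 6.63 CPM) overlaps *Itgae* and *Fyco1* (23.0 to 31.5 CPM) overlaps *Cxcr6*, each on the opposite strand. Whether reads of these neighbors entered the levels of *Itgae* and *Cxcr6* was not tested.

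Within clusters, *Itga1*, *Cxcr6*, *Rgs1* and *Cd101* kept the direction of their library differences in both comparisons that involve sIL-2. In each of 10 clusters with at least 100 cells in both libraries, all 4 genes had a log2 ratio of IL-2/21-Trikine set against sIL-2 below 0. The counting interval was wholly below 0 in 9 clusters for *Itga1*, 8 for *Cd101* and 10 for the other two. The median over clusters was -0.92 for *Itga1*, -0.32 for *Cxcr6*, -0.74 for *Rgs1* and -0.48 for *Cd101*. For sIL-2 set against sIL-2 + IL-21, the ratio was above 0 for the same 4 genes in each of 9 clusters. Its interval was wholly above 0 in 9 clusters for *Itga1* and *Cxcr6*, 8 for *Rgs1* and 7 for *Cd101*. The medians were 0.69 for *Itga1*, 0.64 for *Cxcr6*, 0.18 for *Rgs1* and 0.30 for *Cd101*. The last of these was smaller than the library value of 1.13 for *Cd101*. With the same cluster makeup in each library, *Cd101* came to -0.48 for IL-2/21-Trikine set against sIL-2 and 0.44 for sIL-2 set against sIL-2 + IL-21, both within the bound of 0.5, and *Rgs2* to -0.01 in the second comparison. For IL-2/21-Trikine set against sIL-2 + IL-21 the direction of *Cd101* was not kept, since its ratio was above 0 in 3 of 9 clusters, with a median of -0.17, and was -0.04 with the same cluster makeup. *Itga1* was above 0 in 5 of these 9 clusters, *Cxcr6* in 9 and *Rgs1* in 1. With the same cluster makeup, *Itga1* came to 0.10 in this comparison and *Cd69* to -0.29, against 0.08 for the whole libraries. In the stem-like cluster, for example, *Itga1* was at 79.6 CPM in the sIL-2 library, 40.7 CPM in the IL-2/21-Trikine library and 51.7 CPM in the sIL-2 + IL-21 library.

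For *Cd69* the values within clusters differed from the library totals. For *Itgae* they had mostly the same direction with larger ratios in both comparisons with sIL-2 + IL-21. In 8 of 9 clusters *Cd69* was lower in the sIL-2 library than in the sIL-2 + IL-21 library, with a median log2 ratio of -0.55, against 0.06 for the whole libraries. In the stem-like cluster its level was 342 CPM in the sIL-2 library, 411 CPM in the IL-2/21-Trikine library and 625 CPM in the sIL-2 + IL-21 library, and in the ISG-like cluster 920 CPM, 1261 CPM and 1344 CPM in the same order. The ISG-like cluster, the one with the highest *Cd69* level in every library, held 14.8% of cells in the sIL-2 library, 7.06% in the IL-2/21-Trikine library and 4.27% in the sIL-2 + IL-21 library. With the same cluster makeup in each library, the log2 ratio of *Cd69* for sIL-2 set against sIL-2 + IL-21 was -0.50. *Itgae* was lower in the sIL-2 library than in the sIL-2 + IL-21 library in 9 of 9 clusters, with intervals wholly below 0 in 5 of them. The median log2 ratio was -1.25, against -0.29 for the whole libraries. For IL-2/21-Trikine set against sIL-2 + IL-21, *Itgae* was below 0 in 8 of 9 clusters, with 5 intervals wholly below 0 and a median of -1.12. For IL-2/21-Trikine set against sIL-2 it was mixed, above 0 in 7 clusters and below 0 in 3. These ratios rest on few UMIs, and *Itgae* has no measured background. Its level in the stem-like cluster was 1.70 CPM [0.778, 3.23] in the sIL-2 library from 9 UMIs, 2.38 CPM [1.77, 3.12] in the IL-2/21-Trikine library from 51 UMIs and 5.86 CPM [4.15, 8.05] in the sIL-2 + IL-21 library from 38 UMIs. *Rgs2* had no common direction, with ratios of IL-2/21-Trikine set against sIL-2 above 0 in 4 clusters and below 0 in 6.

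**Figure D3:**
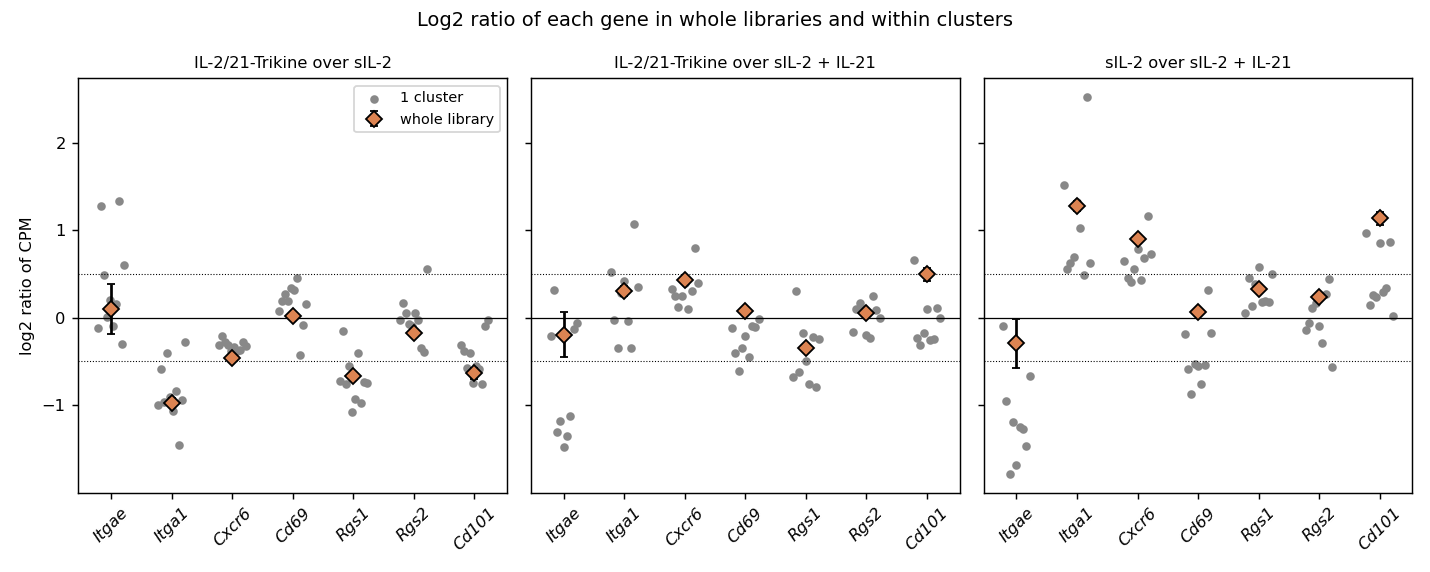
Log2 ratio of CPM of each gene between pairs of libraries, 1 panel per pair. Diamonds are whole libraries with counting intervals, grey points are single clusters with at least 100 cells in both libraries, and dotted lines mark a log2 ratio of 0.5 in each direction. The points of *Itga1*, *Cxcr6*, *Rgs1* and *Cd101* all lie below 0 for IL-2/21-Trikine set against sIL-2, and those of *Cd69* for sIL-2 set against sIL-2 + IL-21 lie below the whole-library value of 0.06 in 8 of 9 clusters.

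Levels differed between clusters, and the clusters at the ends of the order were often the same in the 3 libraries. *Cd69* was highest in the ISG-like cluster in all 3 libraries, and over the pooled libraries it ran from 241 CPM in cluster 11, led by *Ung*, *Chek1* and *Cdca7*, to 1097 CPM in the ISG-like cluster. *Rgs2* was highest in cluster 4, led by *Trp53inp1*, *Aff3* and *Bach2*, in all 3 libraries, with 754, 718 and 673 CPM in library order. It was lowest in cluster 9, led by *Myo1f*, in the 2 libraries where that cluster had at least 100 cells, at 124 CPM in the sIL-2 library and 94.3 CPM in the IL-2/21-Trikine library. *Itga1* was lowest in the early activated-like cluster in all 3 libraries, at 15.8, 10.5 and 10.7 CPM. Its pooled level in clusters 9 and 7 was 114 CPM and 113 CPM, and in the sIL-2 library it was highest in cluster 8, at 167 CPM from 60 UMIs. *Cxcr6* was lowest in the proliferating-like cluster in all 3 libraries, and in cluster 9 it reached 463 CPM in the sIL-2 library and 381 CPM in the IL-2/21-Trikine library. *Rgs1* had the smallest fold range of the list over the pooled clusters, 2.497, from 351 CPM in cluster 11 to 877 CPM in the ISG-like cluster. *Cd101* was highest in cluster 8 in all 3 libraries, at 103, 61.0 and 56.7 CPM, and *Itgae* in the same cluster in the IL-2/21-Trikine library (7.02 CPM, from 13 UMIs) and the sIL-2 + IL-21 library (7.67 CPM, from 5 UMIs). Cluster 8 is a cluster of shallow cells in which genes of 100 kb or more took 18.4% to 21.0% of UMIs, against 6.61% to 8.51% in the libraries as a whole, and the part of this in the levels of *Cd101* and *Itgae* was not tested.

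**Figure D4:**
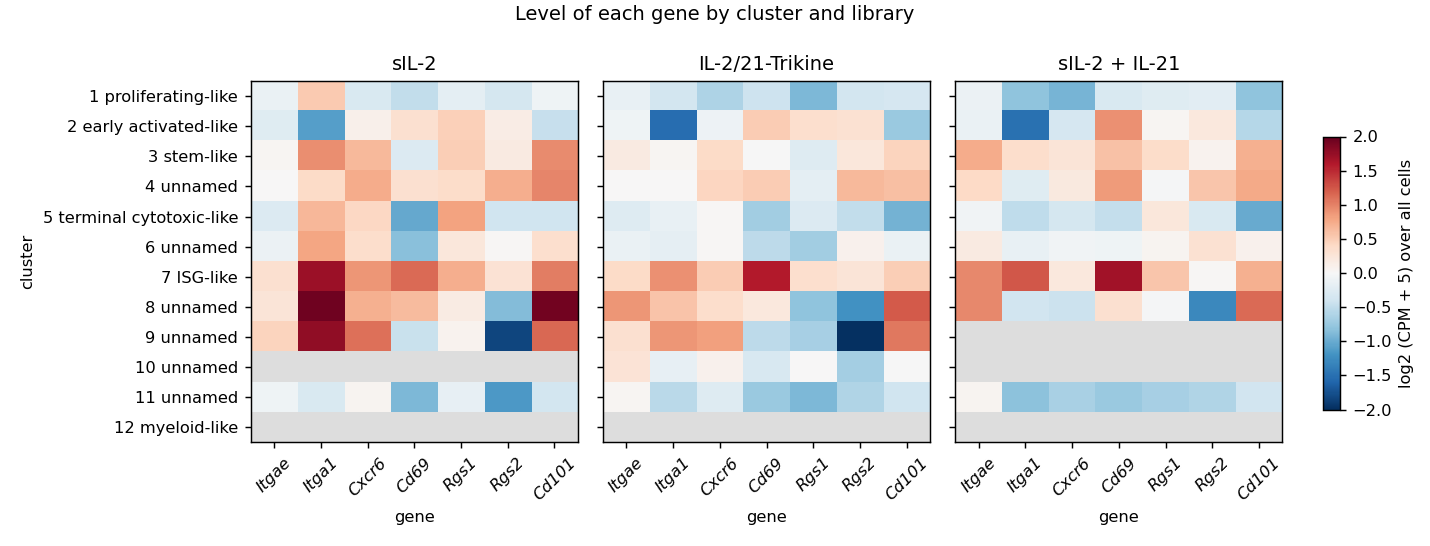
Level of each gene in each cluster of each library, as the log2 of CPM + 5 over the same value for all cells together. Red is above and blue below the pooled level, and grey marks fewer than 100 cells. Colors end at 2 in each direction. *Rgs2* is blue in cluster 9 (124 CPM in the sIL-2 library) where *Itga1*, *Cxcr6* and *Cd101* are red, and *Cd69* is reddest in the ISG-like row in each library, up to 1344 CPM.

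Over the 30 cluster-by-library sums with at least 100 cells, the genes of the list fell into different patterns. These sums share libraries, so the correlations describe them only. Pearson's r was 0.77 between *Itga1* and *Cxcr6*, 0.75 between *Itga1* and *Cd101*, 0.70 between *Cxcr6* and *Cd101* and 0.68 between *Itgae* and *Cd101*. *Rgs2* was not part of this group, with r of -0.24 to *Itga1*, -0.08 to *Cxcr6* and -0.19 to *Cd101*. Among 7368 genes, those most like *Rgs2* were *Junb* (r = 0.92), *Atf3* (0.89) and *Nfkbia* (0.86), and r between *Rgs2* and the summed dissociation response genes, which hold *Junb* and *Atf3*, was 0.87. That r was 0.66 for *Cd69* and 0.56 for *Rgs1*, and between -0.13 and 0.03 for *Itgae*, *Itga1*, *Cxcr6* and *Cd101*. With the summed genes of circulating T cells, r was 0.79 for *Cd101*, 0.70 for *Cxcr6*, 0.66 for *Itga1* and *Cd69* and 0.63 for *Itgae*. It was 0.19 for *Rgs1* and 0.14 for *Rgs2*. With the summed ISG-like markers, r ran from 0.13 for *Rgs2* to 0.67 for *Itga1* and *Cxcr6*. The genes most like *Itga1* were *Evi2b* (0.92), *Sh2d3c* (0.91) and *Prex1* (0.90), and those most like *Cxcr6* were *Lax1* (0.88), *Ifi214* (0.86) and *Rnf114* (0.86). For *Cd69* they were *Lilrb4b* (0.90), *Ccnl1* (0.88) and *Coq10b* (0.86), and for *Rgs1* they were *Nfil3* (0.78), *Mirt1* (0.75) and *Sult2b1* (0.75). *Cd101* was most like *Fcho2* (0.97), *Pitpnc1* (0.96) and *Zfp292* (0.96), and its r with the summed genes of 100 kb or more was 0.83. *Itgae* was most like *Ints6l* (0.87), *Heatr5a* (0.85) and *Tnrc6c* (0.85), and its r with the summed genes of 100 kb or more was 0.68. That r ran from -0.28 for *Rgs2* to 0.47 for *Itga1* among the remaining genes of the list. Few UMIs stand behind some sums of *Itgae*, with 1, 13 and 5 in cluster 8 in library order.

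Coexpression within cells was measured as the share of thinned cells with UMIs of both genes over the share expected if the genes were independent. The pair of *Itga1* and *Cd101* stood highest among pairs without *Itgae*, at 1.18 [0.95, 1.45] in the sIL-2 library (89 cells), 1.53 [1.17, 1.97] in the IL-2/21-Trikine library (59 cells) and 1.72 [1.24, 2.32] in the sIL-2 + IL-21 library (42 cells). *Itga1* and *Cxcr6* came together more often than expected in all 3 libraries, at 1.14 [1.05, 1.25], 1.24 [1.11, 1.38] and 1.26 [1.09, 1.44]. *Cxcr6* and *Cd101* gave 1.13 [1.004, 1.26], 1.17 [1.03, 1.33] and 1.20 [1.01, 1.41] in library order, and *Rgs1* and *Rgs2* gave 1.067 [1.03, 1.10], 1.08 [1.04, 1.11] and 1.08 [1.05, 1.12]. For *Itga1* and *Rgs2* in the sIL-2 library the interval lay below 1, at 0.91 [0.82, 0.99]. When the expected share was taken within clusters, *Itga1* and *Cd101* came to 1.09, 1.31 and 1.49, and *Itga1* and *Cxcr6* to 1.10, 1.17 and 1.16. On that basis *Itga1* and *Rgs2* came to 0.95 in the sIL-2 library. Pairs with *Itgae* rested on few cells, and its pairs with *Itga1* held 12, 2 and 4 cells in library order. From those 12 cells of the sIL-2 library the ratio was 3.14 [1.62, 5.48], and 2.25 within clusters. *Itgae* and *Cd101* gave 3.38 [1.46, 6.66] there from 8 cells. The other pairs of *Itgae* in the sIL-2 library had intervals that include 1. In the other libraries, the 2 and 4 cells with both *Itgae* and *Itga1* were close to the number expected of independent genes. These counts are too few to say that the libraries differ in this pair. The sIL-2 value rests on 30 thinned cells with an *Itgae* UMI.

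**Figure D5:**
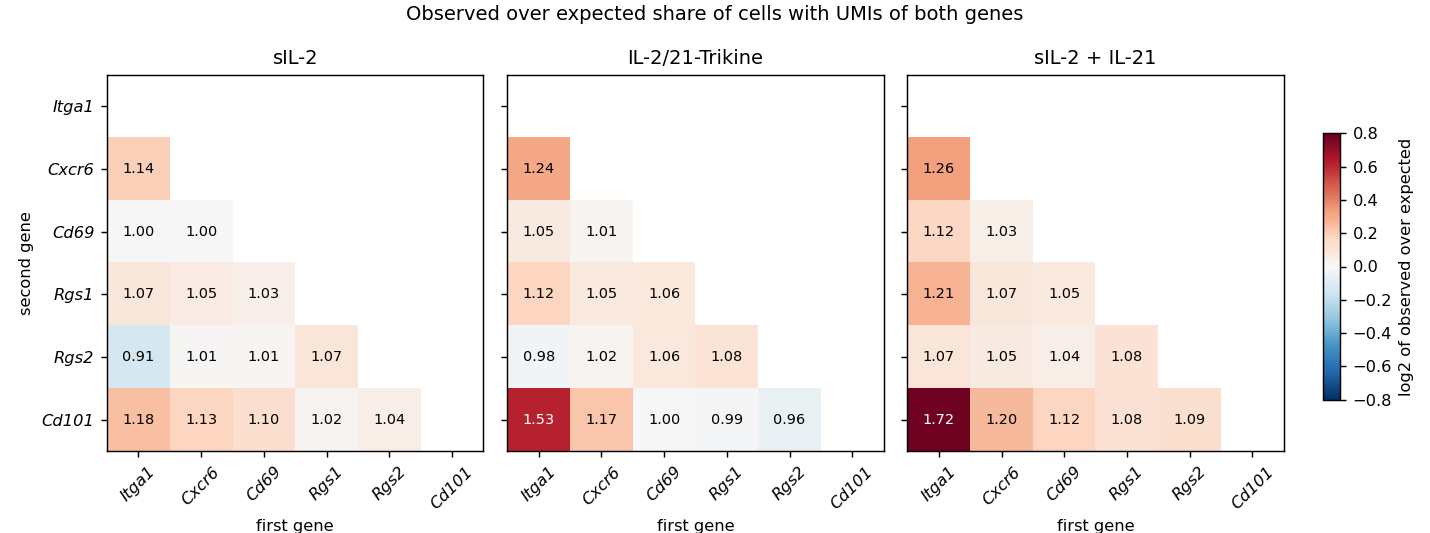
Observed over expected share of thinned cells with UMIs of both genes for the 15 pairs without *Itgae*, in the 3 libraries, with the ratio printed in each square and its log2 as color. The *Itga1* and *Cd101* square is the darkest in each library, from 1.18 in the sIL-2 library to 1.72 in the sIL-2 + IL-21 library, and the squares among *Cd69*, *Rgs1* and *Rgs2* lie between 1.01 and 1.08.

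Cells with several genes of the list were most common in the sIL-2 library. At least 3 of the 7 were detected in 39.9% [38.8, 41.0] of thinned cells in the sIL-2 library, 27.9% [27.1, 28.7] in the IL-2/21-Trikine library and 29.1% [28.2, 30.004] in the sIL-2 + IL-21 library. Shares expected from independent genes were 38.8%, 26.5% and 26.9%. The sIL-2 share was 1.37 times [1.32, 1.43] that in the sIL-2 + IL-21 library, and the IL-2/21-Trikine share was 0.699 times [0.671, 0.728] that in the sIL-2 library. No thinned cell had all 7, and 8, 3 and 6 thinned cells had 6. Without thinning, 34, 19 and 26 cells had all 7 in library order.

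Genes around the list were counted in 7 further lists, again with no test. The shares of all genes to read these counts against were 7.42% lower and 3.45% higher for IL-2/21-Trikine set against sIL-2, 11.3% higher and 7.29% lower for sIL-2 set against sIL-2 + IL-21, and 4.65% higher and 5.66% lower for IL-2/21-Trikine set against sIL-2 + IL-21. Of the transcription factors linked to residency, 11 were measured, and their log2 ratios had a median of -0.33 in IL-2/21-Trikine set against sIL-2 (3 lower, 0 higher by at least 0.5) and 0.43 for sIL-2 set against sIL-2 + IL-21 (4 higher, 1 lower). In the remaining comparison their median was 0.03, with 1 higher and 3 lower. *Prdm1*, which encodes Blimp-1, was at 18.2 CPM in the sIL-2 library, 7.95 CPM in the IL-2/21-Trikine library and 16.8 CPM in the sIL-2 + IL-21 library, so that IL-2/21-Trikine set against sIL-2 gave -1.20 [-1.30, -1.10] on the log2 scale. *Nr4a1*, induced by T cell receptor signals, was at 346 CPM in the sIL-2 library and 155 CPM in the sIL-2 + IL-21 library, and *Runx3* was at 182 and 224 CPM, the lowest log2 ratio of the list at 10 CPM or more, -0.30. *Zfp683* was at 2.37, 2.28 and 3.48 CPM in library order. TGF-β, the cytokine known to induce CD103, had 12 measured genes of its pathway, with medians of -0.46 for IL-2/21-Trikine set against sIL-2 (4 lower, 0 higher) and 0.51 for sIL-2 set against sIL-2 + IL-21 (6 higher, 0 lower). In the remaining comparison the median was 0.01, with 2 higher and 0 lower. *Lrrc32*, which encodes the TGF-β docking receptor GARP, was at 20.3 CPM in the sIL-2 library and 7.65 CPM in the IL-2/21-Trikine library, and *Smad3* at 29.5 CPM in the sIL-2 library, 21.7 CPM in the IL-2/21-Trikine library and 12.7 CPM in the sIL-2 + IL-21 library.

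Other genes of resident T cells and those of circulating T cells were both lower on the median in the IL-2/21-Trikine library than in the sIL-2 library and higher in the sIL-2 library than in the sIL-2 + IL-21 library. The 17 measured genes of the first list had medians of -0.41 and 0.51, with 6 lower and 0 higher in the first comparison and 9 higher and 0 lower in the second. *Nt5e*, which encodes CD73, was at 30.5 CPM in the sIL-2 library, 18.6 CPM in the IL-2/21-Trikine library and 6.31 CPM in the sIL-2 + IL-21 library, and *Cd244a* was at 24.4, 13.2 and 29.0 CPM. The 18 measured genes of the second list had medians of -0.29 and 0.54, with 4 lower and 2 higher, and 10 higher and 1 lower. For IL-2/21-Trikine set against sIL-2 + IL-21, the first list had a median of 0.16, with 5 higher and 2 lower, and the second a median of 0.49, with 9 higher and 1 lower, beside 0.08 with 0 in either direction for the 7 residency genes. *Eomes*, a T-box factor, was at 11.8, 4.95 and 2.64 CPM in library order. Among 12 measured RGS genes, *Rgs1* and *Rgs2* included, the median for IL-2/21-Trikine set against sIL-2 was -0.38 (5 lower, 0 higher), and that against sIL-2 + IL-21 was 0.02 (1 lower, 0 higher). In the first of these, *Rgs16* was lowest at -0.94 (282 CPM in the sIL-2 library and 147 CPM in the IL-2/21-Trikine library). Among 10 measured integrin alpha genes, *Itga1* had the lowest ratio of IL-2/21-Trikine set against sIL-2 and the highest of sIL-2 set against sIL-2 + IL-21 at 10 CPM or more, and the medians were -0.38 (4 lower, 0 higher) and 0.62 (6 higher, 1 lower). Of the partners and ligands, *Itgb7*, *Itgb1* and 1 ligand gene of 4 reached a mean of 1 CPM. That gene, *Cdh1*, which encodes E-cadherin, is named here after its values were seen, and it was at 5.49 CPM in the sIL-2 library, 2.41 CPM in the IL-2/21-Trikine library and 1.94 CPM in the sIL-2 + IL-21 library.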

How the data were processed

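UMI counts of every gene in every cell were taken as the authors deposited them, as raw counts without normalization, where a UMI (unique molecular identifier) marks a captured RNA molecule. Per the file headers, the counts came from Cell Ranger 9.0.0, and the study's methods give intron-containing counting and a GRCm39 reference, whereas the submitters' processing notes name mm10. The matrices held called cells. Cells with 500 to 120000 UMIs and at most 20% mitochondrial UMIs were kept, as in the study's methods, which left cell numbers within 1 cell of those the methods state for each library.

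The genes of interest were the 8 symbols of a fixed list, of which 7 were in the files, and these genes, the companion lists and the conditions were chosen with earlier results of these data known. Levels were UMIs summed over kept cells, as CPM (UMIs per 1000000 UMIs of the library). With 1 library per treatment no test was made, and differences were log2 ratios, called past the fold at an absolute value of at least 0.5 among genes with a mean of at least 1 CPM. Counting intervals are exact Poisson (levels), conditional binomial (ratios of levels) and Clopper-Pearson (shares) at 95%, with a log interval for ratios of shares. All cover counting error only. For shares, cells with under 2000 UMIs were left out and every other cell was thinned to 2000 UMIs. This left out 3.43% of cells in the sIL-2 library, 13.3% in the IL-2/21-Trikine library and 3.72% in the sIL-2 + IL-21 library. The share expected for a pair of genes was the product of their shares. Cells were clustered with scanpy (2000 variable genes, 50 principal components, 20 neighbors, Leiden resolution 1.0, no batch correction) after the genes and markers of the lists were left out of the clustering genes. A cluster was named if a fixed class of markers led it (mean log2 fold of at least 0.5, at least 3 markers at that fold, and more of its 10 leading genes than any other class), and clusters with a median under 2000 UMIs stayed unnamed. No doublet caller was run, and leaving out the 5% deepest cells was an alternative. For the same cluster makeup, the CPM of each cluster of a library was weighted by that cluster's share of all kept cells. Clusters thus counted by cells and not by UMIs, and those with under 100 cells in a library were included. Genes named from the lists were those with the highest and lowest log2 ratio at 10 CPM or more in either library, plus *Itgb7* and *Itgb1*, except 1 gene that is not reported here, and genes most like a member were those with the highest Pearson r of log2 (CPM + 5) over cluster-by-library sums of at least 100 cells. Promoter sequence came from a RefSeq table on GRCm38.p6 and gene lengths from GENCODE M21 on GRCm38. No coordinate was carried to the build of the files. The ratios of levels with their intervals, the thinning, the pair ratios and the clustering were tested on simulated data. The other steps were not. The scanpy version was 1.11.5, with leidenalg 0.10.2 for the Leiden step, scikit-learn 1.9.0 for neighbors, scipy 1.17.1 for intervals, matplotlib 3.10.9 for plots, and numpy 2.4.6 and pandas 2.3.3 under Python 3.11.15.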

Additional observations from a re-analysis of the deposited data

How the results depend on the processing

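With 1 library per treatment no replicate could be left out and no paired analysis was possible because no test was made. The 3 lower genes for IL-2/21-Trikine set against sIL-2 came to 0 at a log2 ratio of at least 1. For IL-2/21-Trikine set against sIL-2 + IL-21, the count of 0 became 1 without mitochondrial and ribosomal protein genes in the total (*Cd101* higher), 1 with the same cluster makeup in each library (*Itgae* lower) and 4 at a log2 ratio of at least 0.3 (3 higher, 1 lower). Of the recomputed counts of genes past the fold, 29 stayed within 1.5 times the reported count and these 4 did not. This tally does not cover the shares of cells with a UMI or the log2 ratios, which moved more often. With the same cluster makeup, sIL-2 set against sIL-2 + IL-21 gave 2 higher and 2 lower genes, with *Itgae* at -1.19, *Cd69* at -0.50, *Cxcr6* at 0.58 and *Cd101* at 0.44. Cells with at least 3 genes were 16.0%, 10.5% and 10.7% in library order when thinned to 1000 UMIs, 76.1%, 64.7% and 64.4% at 5000 UMIs, and 93.03%, 78.3% and 88.3% without thinning. Leaving out clusters 8, 10 and 12, an alternative chosen after seeing the data, gave 28.9% with IL-2/21-Trikine. Over 9 alternatives the log2 ratio of *Itga1* lay between -0.99 and -0.87 for IL-2/21-Trikine set against sIL-2 and between 0.97 and 1.298 for sIL-2 set against sIL-2 + IL-21. Where IL-2/21-Trikine was set against sIL-2 + IL-21, *Itga1* ran from 0.10 to 0.34, *Cxcr6* from 0.28 to 0.47, *Cd101* from -0.04 to 0.53 and *Itgae* from -0.81 to -0.16. Depth limits *Itgae* most, with 176 to 278 UMIs per library.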
